A study of Mus musculus with 6 samples.

Results

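The genes described here take up, activate and oxidise fatty acids in the heart, or control those steps through the PPAR nuclear receptors. They were 41 genes chosen by name, and all 41 were found among the 54352 rows of the table. The data are RNA sequencing of mouse hearts, with 6 libraries in 3 groups of 2. T2D dnMCUb hearts came from diabetic mice injected with an adeno-associated virus (AAV) that encodes a FLAG-tagged dominant negative form of MCUb, an inhibitory subunit of the mitochondrial calcium uniporter. T2D empty vector hearts came from diabetic mice injected with the same kind of virus without a cargo. Control hearts came from mice kept on regular chow without a vector, so controls differed from both diabetic groups in diet, toxin and virus at once. Diabetes was induced in C57BL/6 mice of 12 weeks by a diet with 60% of its calories from fat and a single dose of 75 mg/kg streptozotocin, a toxin of pancreatic beta cells. Virus was injected into the jugular vein between 16 and 18 weeks past streptozotocin, and hearts were studied 4 weeks later, 5 to 6 months after induction. The labels used here name neither the serotype and promoter of the virus nor the age and strain of the controls, nor do they say that each library is a different animal. P-values therefore measure the spread between libraries, which may be technical.

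Heart muscle gets most of its ATP from long-chain fatty acids. Lipoprotein lipase frees them from circulating triglyceride at the capillary wall, CD36 and fatty acid binding proteins carry them into the cell, and acyl-CoA synthetases and the carnitine shuttle bring them into mitochondria, where beta oxidation shortens them. Fatty acids also bind PPAR alpha, which pairs with RXR alpha on DNA and switches on many of the genes for these steps, with PGC-1 alpha as a coactivator. In diabetic hearts this programme is known for raised fatty acid use at the cost of glucose.

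PPAR:RXR pairs are known to bind direct repeats of AGGTCA with 1 base between the copies, so promoters of the members were searched for such repeats. RefSeq promoters (build GRCm38.p6, 250 bases before to 50 after the start) were found for 34 of the 41 members, as 39 windows. Lpl, Crat, Angptl4, Cpt1b, Acaa2, Fabp4 and Decr1 had none. This direct repeat, 2 copies of AGGTCA with any base between them and at most 2 mismatches, on either strand, was present in 5 of these 39 windows (12.8%) and in 3.86% of all 32851 promoters. The single copy AGGTCA, which lies inside some of these repeats, was in 8 (20.5%) and in 16.3% of all. TCAAGGTCA, the motif of estrogen related receptors, which itself ends in AGGTCA, was in none of the 39 and in 0.423% of all. Repeats lay before the starts of Ucp3, Cd36, Echs1, Etfa and Rxra. Of these, Echs1 was lower and the rest were higher in T2D empty vector than in control. None of these differences passed the test over all genes given below. Upstream sequences follow for some of the members named below, 5′ to 3′ on the gene's strand, with AGGTCA and the repeat in capitals.
Ucp3: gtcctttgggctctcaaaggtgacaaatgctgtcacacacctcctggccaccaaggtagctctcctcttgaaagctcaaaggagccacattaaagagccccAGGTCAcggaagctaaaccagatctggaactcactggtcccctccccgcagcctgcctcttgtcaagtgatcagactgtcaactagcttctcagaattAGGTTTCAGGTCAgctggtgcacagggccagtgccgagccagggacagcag
Ucp2: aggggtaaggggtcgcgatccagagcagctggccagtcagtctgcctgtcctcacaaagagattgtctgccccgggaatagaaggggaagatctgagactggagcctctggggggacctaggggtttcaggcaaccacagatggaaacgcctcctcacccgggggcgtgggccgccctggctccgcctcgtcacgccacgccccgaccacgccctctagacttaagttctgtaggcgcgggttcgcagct
Cd36: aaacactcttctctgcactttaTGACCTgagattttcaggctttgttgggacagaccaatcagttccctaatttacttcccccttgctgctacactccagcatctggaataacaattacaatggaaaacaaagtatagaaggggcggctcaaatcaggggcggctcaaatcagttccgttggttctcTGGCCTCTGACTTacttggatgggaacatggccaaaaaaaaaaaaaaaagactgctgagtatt
Etfa: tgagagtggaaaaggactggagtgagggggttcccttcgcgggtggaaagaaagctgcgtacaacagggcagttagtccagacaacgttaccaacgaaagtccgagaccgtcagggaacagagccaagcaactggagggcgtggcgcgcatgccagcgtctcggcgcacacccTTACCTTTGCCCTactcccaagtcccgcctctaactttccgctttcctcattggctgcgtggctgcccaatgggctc
Hadha: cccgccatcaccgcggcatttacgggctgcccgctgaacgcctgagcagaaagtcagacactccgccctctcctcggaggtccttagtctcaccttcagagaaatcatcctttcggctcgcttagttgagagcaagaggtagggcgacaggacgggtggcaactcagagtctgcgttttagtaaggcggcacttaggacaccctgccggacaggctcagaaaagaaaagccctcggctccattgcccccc
Ucp3 (chr7:100472741-100472990, plus strand) is shown because it had the largest difference from control among the members, and it held the repeat, which contains a copy of AGGTCA, at 51 bases and another copy at 149 bases before its start. Ucp2 (chr7:100493108-100493357, plus strand) is its neighbour, 6931 bases downstream in the deposited table, and none of the motifs was found in its window. Cd36 (chr5:17835897-17836146, minus strand) held a repeat at 63 bases and a single copy at 228 bases before its start, and Etfa (chr9:55512244-55512493, minus strand) held a repeat at 77 bases before its start. Hadha (chr5:30154981-30155230, minus strand) is shown because it faces Hadhb, the gene of its partner subunit, whose start lies 273 bases away on the other strand, so that the 2 promoter windows share 228 bases. A match is a description of letters and does not show binding.

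Values are rlog values, which are log2 levels that the authors scaled between libraries and drew towards each gene's mean. The table holds no counts, so the depth of the libraries is unknown. Of the 41 members 40 reached a mean rlog of 5 and were tested among the 13094 genes that did. Acaa1b, a peroxisomal thiolase gene with a near-identical neighbour copy, Acaa1a, was the exception and lay between 0.73 and 0.75 in all libraries. Library 1 of T2D dnMCUb stood apart from the rest, at 10.82 on a first principal component where the other 5 lay between -4.42 and 2.69, and that component held 46.7% of the variance. Its summed atrial myocyte markers (Myl7, Myl4, Nppa, Sln and Bmp10) were at 12.15 on the log2 scale and at 10.54 in library 2, against 10.54 and 10.46 with empty vector and 11.55 and 11.28 in controls. Summed ventricular markers (7 of 7 tested) were at 20.34 and 20.69 with dnMCUb, 20.64 and 20.67 with empty vector and 20.81 and 20.72 in controls. Mcub, the gene of the vector's cargo, was at 5.62 and 5.47 in dnMCUb hearts, 5.48 and 5.46 in empty vector hearts and 5.42 and 5.47 in control hearts, with a difference of 0.078 (SE 0.048, limma adjusted p = 0.888) between the diabetic groups. Its level therefore does not check the dnMCUb label, and directions that involve that group rest on the label.

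**Figure D1:**
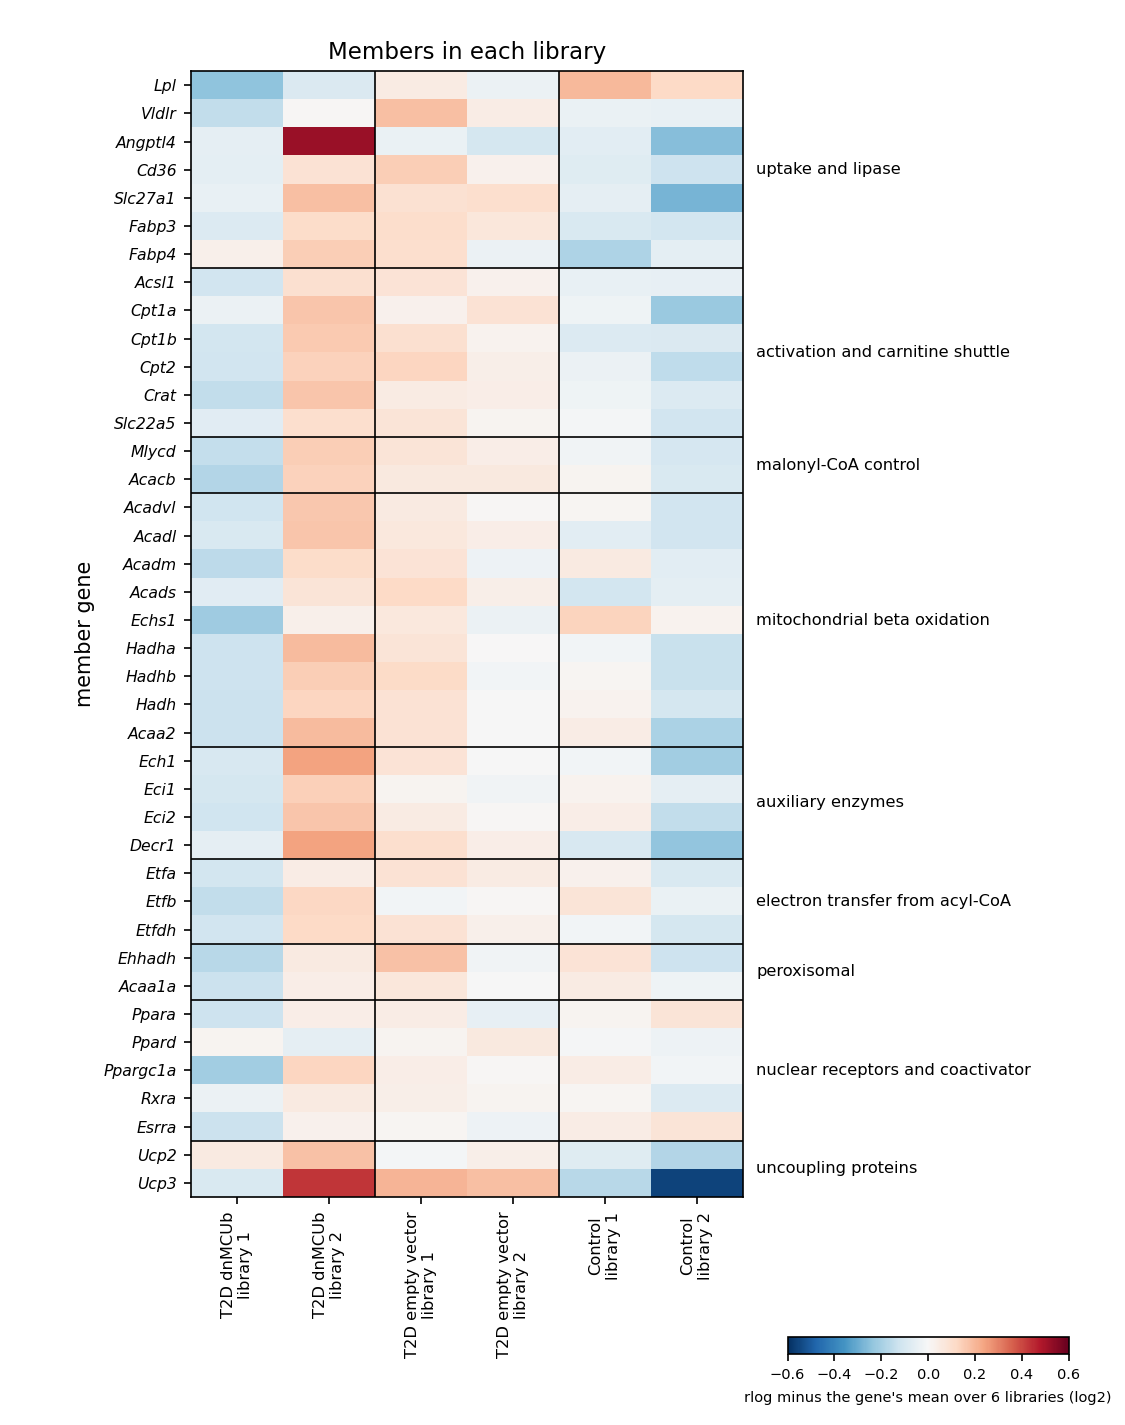
Rlog of the 40 tested members in each of the 6 libraries, as the difference from the gene's mean over the libraries (log2, colour), with the members ordered by role down the page. T2D dnMCUb library 2 was the highest of the 6 for 29 members and T2D dnMCUb library 1 the lowest for 20.

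The members varied together from library to library. T2D dnMCUb library 2 had the highest level of 29 of the 40 members, and T2D empty vector library 1 of 6. The lowest level was in T2D dnMCUb library 1 for 20 members and in control library 2 for 17. Within T2D dnMCUb, library 2 was above library 1 for 39 of 40 members, by a median of 0.25, while 54.3% of all tested genes were higher in library 2. Within T2D empty vector library 2 was the lower for 35 members (median -0.060), and within control it was the lower for 36 (median -0.11). The spread between the dnMCUb libraries was thus wider than the typical difference between any pair of groups given below.

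The median member lay at -0.12 and 0.13 around its own mean in T2D dnMCUb, at 0.079 and 0.017 with empty vector, and at -0.013 and -0.10 in control. Most members are abundant, so the 488 genes whose mean rlog was 12 or more were set beside them. Those genes had medians of -0.12 and 0.032 in T2D dnMCUb, 0.022 and -0.016 with empty vector, and 0.044 and 0.015 in control. In T2D dnMCUb library 1 the members were therefore about as low as abundant genes at large, and in control library 2 they were lower than those. The part of this shift, and of the atrial and ventricular markers, in the members' values was not tested.

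**Figure D2:**
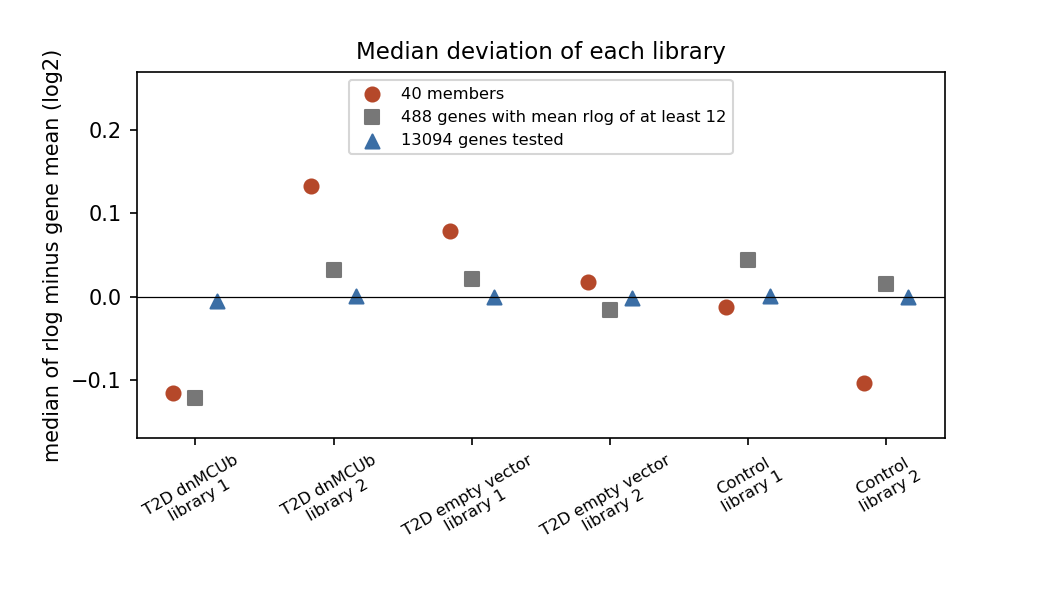
Median over genes of rlog minus the gene's mean over 6 libraries (log2, vertical axis) in each library, for the 40 members (circles), the 488 genes whose mean rlog was 12 or more (squares) and the 13094 genes tested (triangles). T2D dnMCUb library 1 is low for members and abundant genes alike, at -0.12 and -0.12.

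Diabetic hearts with the empty vector were compared with control hearts to ask what diabetes, together with the vector, did to this programme. Of the 40 members 35 were higher in T2D empty vector, with a median difference of 0.11 and a range of -0.15 to 0.55. Over all tested genes 48.2% were higher, with a median of -0.0025, and over the 488 abundant genes 38.3% were higher, with a median of -0.028. The libraries did not overlap for 24 members that were higher (60%, against 19.9% of all tested genes) and for 2 that were lower (5%, against 22.5%). No single member passed limma's test over all genes, where the smallest adjusted p of a member was 0.759 and 0% of genes were called. At an unadjusted p under 0.05 limma had 5 members higher and 0 lower, where 3.26% and 2.87% of all genes were so.

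In the authors' deposited table, whose folds come from another model and are less compressed than rlog differences, the median log2 fold of the 41 members was 0.16. At an unadjusted p under 0.05 the authors' deposited table had 14 members higher and 1 lower, where 1.10% and 1.01% of all genes with a fold were so. Shares from that table, here and below, are over all genes with a fold, 28255 in this comparison. That set is wider than the 13094 genes tested by limma and holds genes near the floor, such as Acaa1b. Most members are abundant, so these shares are not matched to them in level. At an adjusted p under 0.05 it had 1 member, Decr1, among 0.127% of genes called higher and 0.127% called lower. The member median was 0.051, with 27 of 40 higher, when control library 2 was left out, and 0.16 without control library 1. Summed atrial markers were at 10.54 and 10.46 with empty vector against 11.55 and 11.28 in controls. In control library 2 Nppa alone, at 11.01, was above both empty vector libraries (10.01 and 9.63). Myl7, Myl4 and Sln, at 7.32, 7.53 and 6.07 in that control, were below both (7.46 and 7.94, 7.65 and 8.15, 6.12 and 6.22). The part of these markers in the members' differences was not tested.

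Among the 7 genes that free and take up fatty acids, Lpl alone was lower in T2D empty vector than in control. Lpl (ENSMUSG00000015568.16, chromosome 8 from 68880491 to 68906934, plus strand) encodes lipoprotein lipase, which releases fatty acids from circulating triglyceride. Its rlog was 15.58 and 15.73 in dnMCUb hearts, 15.87 and 15.78 in empty vector hearts and 16.01 and 15.94 in control hearts. The 3 groups did not overlap, with dnMCUb lowest and control highest, and the rlog differences were -0.15 (SE 0.098) for T2D empty vector against control and -0.17 (SE 0.098) for T2D dnMCUb against T2D empty vector. For T2D dnMCUb against control the difference was -0.32 (SE 0.098, limma adjusted p = 0.299), and the authors' deposited table calls this fall, with a log2 fold of -0.45 and an adjusted p of 0.0225. Angptl4, an inhibitor of this lipase and a PPAR target, was at 7.33 and 7.90 in dnMCUb hearts, 7.34 and 7.28 in empty vector hearts and 7.32 and 7.13 in control hearts. Its value in dnMCUb library 2 stood far above the other 5, which lay between 7.13 and 7.34. The difference between the diabetic groups was 0.30 (SE 0.16, limma adjusted p = 0.879). Without dnMCUb library 1 it was 0.59, which rests on dnMCUb library 2 alone. Vldlr, a receptor for triglyceride-rich lipoproteins, was at 12.20 and 12.35 in dnMCUb hearts, 12.53 and 12.39 in empty vector hearts and 12.31 and 12.30 in control hearts. It was higher in T2D empty vector than in control by 0.16 (SE 0.074) with no overlap, and dnMCUb hearts were below empty vector hearts, at a difference of -0.18 (SE 0.074, limma adjusted p = 0.869), again with no overlap.

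The 4 carriers of fatty acids were higher in all diabetic libraries than in both controls, as were 10.0% of all tested genes. None of the 4 passed the limma test over all genes. Slc27a1, which encodes the fatty acid transport protein FATP1, was at 11.20 and 11.42 in dnMCUb hearts, 11.34 and 11.35 in empty vector hearts and 11.19 and 10.97 in control hearts. Its dnMCUb library 1 was only narrowly above the higher control, and the difference between T2D empty vector and control was 0.26 (SE 0.093, limma adjusted p = 0.801). Cd36 (ENSMUSG00000002944.15, chromosome 5 from 17782016 to 17835696, minus strand), the main fatty acid translocase of heart muscle, was at 15.69 and 15.84 in dnMCUb hearts, 15.90 and 15.78 in empty vector hearts and 15.68 and 15.63 in control hearts. Its dnMCUb library 1 was again close to the higher control, and the difference of T2D empty vector from control was 0.18 (SE 0.098, limma adjusted p = 0.827). Fabp3, the fatty acid binding protein of heart muscle, was at 13.51 and 13.70 in dnMCUb hearts, 13.69 and 13.66 in empty vector hearts and 13.50 and 13.48 in control hearts. Its dnMCUb library 1 lay just above the controls, and T2D empty vector differed from control by 0.19 (SE 0.078). Fabp4, the binding protein of adipocytes and capillary endothelium, was at 13.21 and 13.33 in dnMCUb hearts, 13.28 and 13.15 in empty vector hearts and 12.998 and 13.12 in control hearts. Of these 4 carriers Fabp4 alone had a positive difference between dnMCUb and empty vector hearts, 0.057 (SE 0.079), which is less than its standard error. Beside Fabp4 and Lpl, which fat cells also express, 0 of 7 adipocyte markers reached a mean rlog of 5, and Adipoq lay between 3.97 and 4.19. The summed adipocyte markers were at 6.09 and 5.99 with dnMCUb, 5.97 and 6.02 with empty vector and 6.15 and 5.98 in controls. The summed endothelial markers (7 of 7 tested) were at 14.19 and 14.07, 14.13 and 14.18 and 14.12 and 14.22 in the same order of groups. In bulk tissue, fewer cells of a type and less RNA per cell cannot be told apart.

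**Figure D3:**
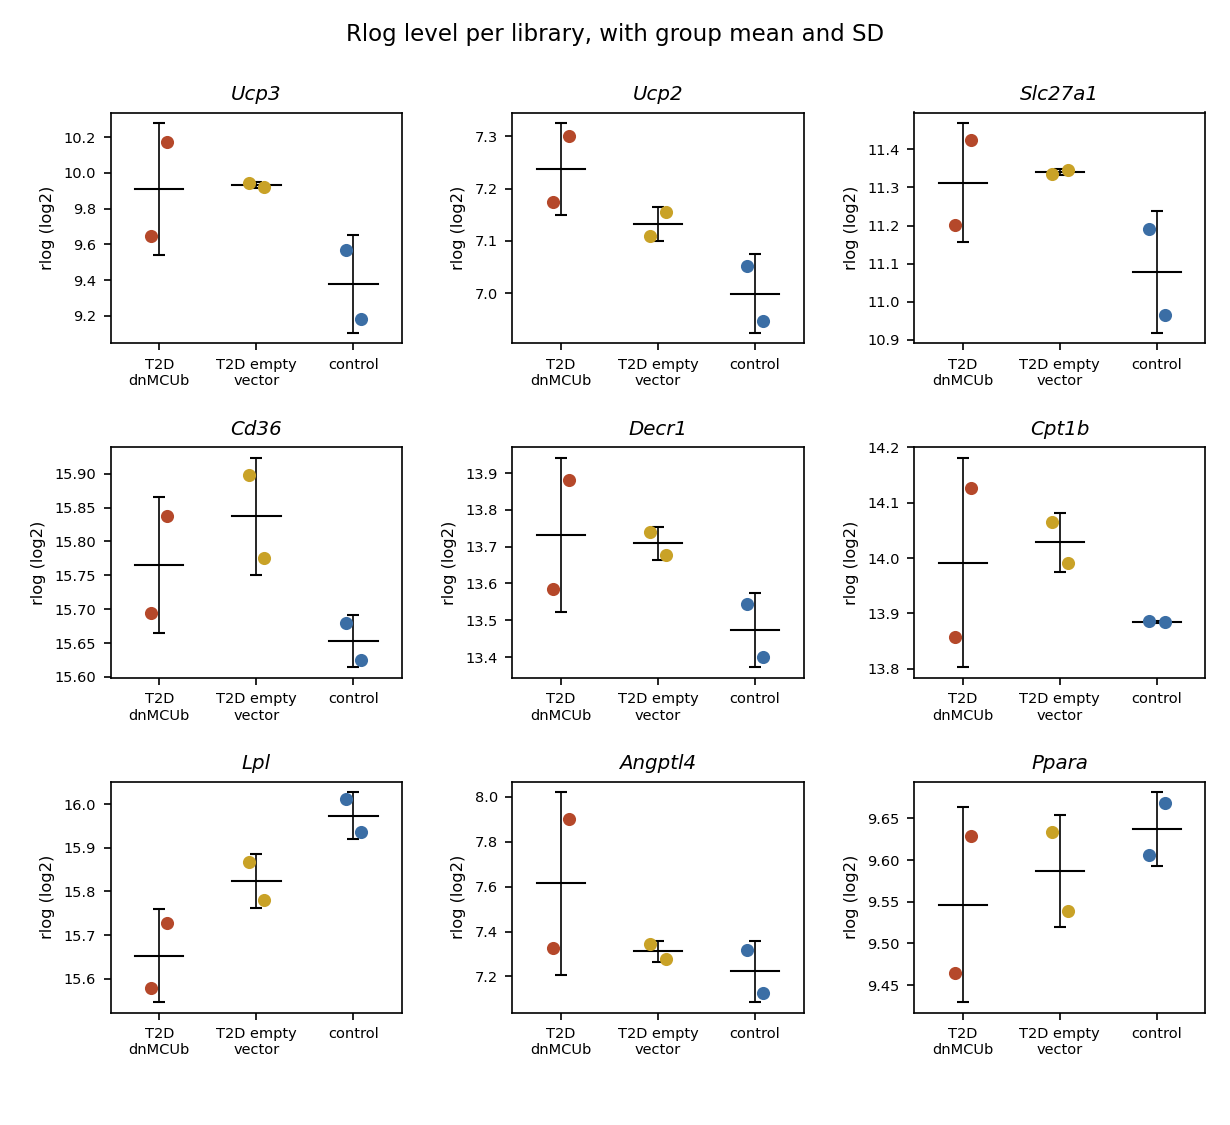
Rlog (log2, vertical axis) of 9 members in the 2 libraries of T2D dnMCUb, T2D empty vector and control, with points for libraries, horizontal lines for group means and bars for SD. Ucp3, Slc27a1, Cd36 and Decr1 lie above control in all 4 diabetic libraries and Lpl below it, while the dnMCUb libraries lie far apart for most of these genes.

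Genes of activation and the carnitine shuttle were higher in T2D empty vector without exception. All 6 (Acsl1, Cpt1a, Cpt1b, Cpt2, Crat and Slc22a5) were higher than control with no overlap, against 19.9% of all tested genes, with differences of 0.10 to 0.18. None passed the limma test over all genes, where the smallest adjusted p of the 6 was 0.805. Cpt1b, the muscle isoform of the carnitine palmitoyltransferase that gates entry into mitochondria, was at 13.86 and 14.13 in dnMCUb hearts, 14.07 and 13.99 in empty vector hearts and 13.89 and 13.88 in control hearts. Its controls were nearly equal, and T2D empty vector was higher by 0.14 (SE 0.096, limma adjusted p = 0.849). Cpt1a, the liver isoform, had the largest difference of the 6, 0.18 (SE 0.086), and Cpt2, the inner membrane enzyme, had 0.18 (SE 0.090). In T2D dnMCUb, library 2 was above both controls for all 6 and library 1 below or between them. Malonyl-CoA blocks this entry. The genes of its synthesis in muscle, Acacb, and its breakdown, Mlycd, were both higher in T2D empty vector, by 0.097 (SE 0.10) and 0.12 (SE 0.089). Both were so with no overlap, as were 19.9% of all tested genes.

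Of the 9 genes for mitochondrial beta oxidation 8 were higher in T2D empty vector, with a median of 0.11, and 3 (Acadl, Acads and Hadha) did not overlap with control (33.3%, against 19.9% of all tested genes). Acads, the dehydrogenase for short chains, was at 11.69 and 11.84 in dnMCUb hearts, 11.88 and 11.80 in empty vector hearts and 11.65 and 11.70 in control hearts. The difference from control was 0.16 (SE 0.065, limma adjusted p = 0.805) in T2D empty vector, and in dnMCUb library 1 Acads lay between the controls. Acadm, the dehydrogenase for medium chains, was at 14.56 and 14.83 in dnMCUb hearts, 14.80 and 14.69 in empty vector hearts and 14.77 and 14.65 in control hearts. Its libraries overlapped in every comparison, with a difference of 0.033 (SE 0.11) for T2D empty vector against control. Hadha and Hadhb encode the subunits of the mitochondrial trifunctional protein and share the promoter region printed above. Hadha was at 14.87 and 15.18 in dnMCUb hearts, 15.07 and 14.99 in empty vector hearts and 14.97 and 14.86 in control hearts, and the difference of T2D empty vector from control was 0.12 (SE 0.11), beside 0.11 (SE 0.10) for Hadhb. Echs1, the short-chain enoyl-CoA hydratase, was the exception, at 12.18 and 12.42 in dnMCUb hearts, 12.46 and 12.36 in empty vector hearts and 12.53 and 12.42 in control hearts. T2D empty vector overlapped with control at a difference of -0.064 (SE 0.089), and for T2D dnMCUb against control it was -0.17 (SE 0.089, limma adjusted p = 0.505), with dnMCUb library 2 between the controls. Acadvl, Acadl, Hadh and Acaa2 had differences between 0.083 and 0.14 in T2D empty vector against control.

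Auxiliary enzymes handle fatty acids with double bonds that beta oxidation cannot process directly. Decr1 (ENSMUSG00000028223.8, chromosome 4 from 15917240 to 15945507, minus strand), the mitochondrial dienoyl-CoA reductase, was at 13.58 and 13.88 in dnMCUb hearts, 13.74 and 13.68 in empty vector hearts and 13.54 and 13.40 in control hearts. All 4 diabetic libraries were above both controls. Against control, Decr1 was higher by 0.24 (SE 0.11, limma adjusted p = 0.805) with empty vector and by 0.26 (SE 0.11, limma adjusted p = 0.414) with dnMCUb. In the authors' deposited table Decr1 rose in T2D empty vector, with a log2 fold of 0.34 and an adjusted p of 0.0395, and had a fold of 0.38 in T2D dnMCUb (adjusted p = 0.441). Ech1, a dienoyl-CoA isomerase, was at 14.77 and 15.10 in dnMCUb hearts, 14.95 and 14.86 in empty vector hearts and 14.85 and 14.65 in control hearts. It was apart from control in T2D empty vector only, by 0.15 (SE 0.13), and its dnMCUb libraries lay further apart than any of the group differences. Eci1, an enoyl-CoA isomerase, was at 12.05 and 12.30 in dnMCUb hearts, 12.17 and 12.14 in empty vector hearts and 12.18 and 12.10 in control hearts and had a difference of 0.013 (SE 0.084), and Eci2 had 0.083 (SE 0.10).

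Electron transfer flavoprotein and its oxidoreductase pass electrons from acyl-CoA dehydrogenases to the respiratory chain. Etfa was at 12.38 and 12.53 in dnMCUb hearts, 12.57 and 12.54 in empty vector hearts and 12.51 and 12.39 in control hearts. Its T2D empty vector libraries were above those of both other groups, by 0.10 (SE 0.073) against control, while T2D dnMCUb was lower than T2D empty vector by a difference of -0.10 (SE 0.073, limma adjusted p = 0.9). The nearest libraries of the diabetic groups were close, at 12.538 with empty vector and 12.531 with dnMCUb. Etfdh had 0.12 (SE 0.093) for T2D empty vector against control. Etfb, the other subunit, was at 12.81 and 13.09 in dnMCUb hearts, 12.95 and 12.97 in empty vector hearts and 13.04 and 12.92 in control hearts, and its groups overlapped with a difference of -0.023 (SE 0.095). In peroxisomes, which shorten very long chains, Ehhadh was at 7.96 and 8.18 in dnMCUb hearts, 8.30 and 8.11 in empty vector hearts and 8.21 and 8.002 in control hearts. Its groups overlapped in every comparison, with differences of 0.098 (SE 0.100) against control in T2D empty vector and -0.13 (SE 0.100) in T2D dnMCUb against T2D empty vector. Acaa1a had 0.021 (SE 0.064) and -0.077 (SE 0.064) in those comparisons. The mean rlog was 9.36 for Acaa1a and 0.74 for Acaa1b, and how the counting treated reads that match both genes is not known.

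Of the uncoupling protein genes, Ucp3 had the largest difference from control of any tested member in both diabetic groups. Ucp3 (ENSMUSG00000032942.14, chromosome 7 from 100472991 to 100486432, plus strand) encodes a mitochondrial carrier of skeletal and heart muscle that is known as a PPAR target, and it was at 9.65 and 10.17 in dnMCUb hearts, 9.94 and 9.92 in empty vector hearts and 9.57 and 9.19 in control hearts. All 4 diabetic libraries were above both controls, although dnMCUb library 1 exceeded control library 1 only narrowly. Ucp3 was higher by 0.55 (SE 0.17, limma adjusted p = 0.759) with empty vector and by 0.53 (SE 0.17, limma adjusted p = 0.318) in T2D dnMCUb, both against control. Without dnMCUb library 1 the second difference was 0.79, which rests on dnMCUb library 2 alone. Without dnMCUb library 2 it was 0.27, which rests on dnMCUb library 1 alone. Ucp3 had log2 folds in the authors' deposited table of 0.99 (adjusted p = 0.602) and 1.01 (adjusted p = 1) in these comparisons. Ucp2 (ENSMUSG00000033685.13, chromosome 7 from 100493364 to 100497098, plus strand), its widely expressed relative, was at 7.17 and 7.30 in dnMCUb hearts, 7.11 and 7.16 in empty vector hearts and 7.05 and 6.95 in control hearts. The 3 groups did not overlap, with dnMCUb highest and control lowest. The diabetic groups were only narrowly apart, with nearest libraries at 7.156 with empty vector and 7.175 with dnMCUb. Its differences were 0.13 (SE 0.054) for T2D empty vector against control, 0.10 (SE 0.054) for T2D dnMCUb against T2D empty vector and 0.24 (SE 0.054, limma adjusted p = 0.184) for T2D dnMCUb against control. Macrophages also express Ucp2, and the summed macrophage markers (6 of 6 tested) were at 12.29 and 12.12 with dnMCUb, 12.13 and 12.05 with empty vector and 12.05 and 12.05 in controls. Their part in the Ucp2 values was not tested.

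The receptors and coactivator themselves differed little. Ppara, the fatty acid receptor of heart muscle, was at 9.46 and 9.63 in dnMCUb hearts, 9.63 and 9.54 in empty vector hearts and 9.61 and 9.67 in control hearts. Its groups overlapped, with a difference of -0.050 (SE 0.065, limma adjusted p = 0.906) for T2D empty vector against control. Ppargc1a, the gene of PGC-1 alpha, was at 10.01 and 10.34 in dnMCUb hearts, 10.26 and 10.22 in empty vector hearts and 10.26 and 10.20 in control hearts. It overlapped in every comparison, with 0.0096 (SE 0.097) for T2D empty vector against control, and its dnMCUb libraries were the lowest and the highest of the 6. Esrra, the estrogen related receptor alpha that works with PGC-1 alpha, was at 10.69 and 10.85 in dnMCUb hearts, 10.83 and 10.79 in empty vector hearts and 10.86 and 10.90 in control hearts. All 4 diabetic libraries were below both controls, with differences of -0.069 (SE 0.060) in T2D empty vector and -0.11 (SE 0.060, limma adjusted p = 0.516) in T2D dnMCUb. For Esrra, dnMCUb library 2 was only narrowly below the lower control (10.846 and 10.864). Ppard, the ubiquitous relative of Ppara, was at 6.92 and 6.85 in dnMCUb hearts, 6.92 and 6.96 in empty vector hearts and 6.90 and 6.87 in control hearts. T2D empty vector was above the other groups without overlap, by 0.058 (SE 0.038) against control, while T2D dnMCUb was lower than T2D empty vector by a difference of -0.057 (SE 0.038). The nearest libraries of the diabetic groups were almost equal, at 6.921 with empty vector and 6.918 with dnMCUb. Rxra, the partner of all PPARs, differed by 0.063 (SE 0.054) between T2D empty vector and control.

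**Figure D4:**
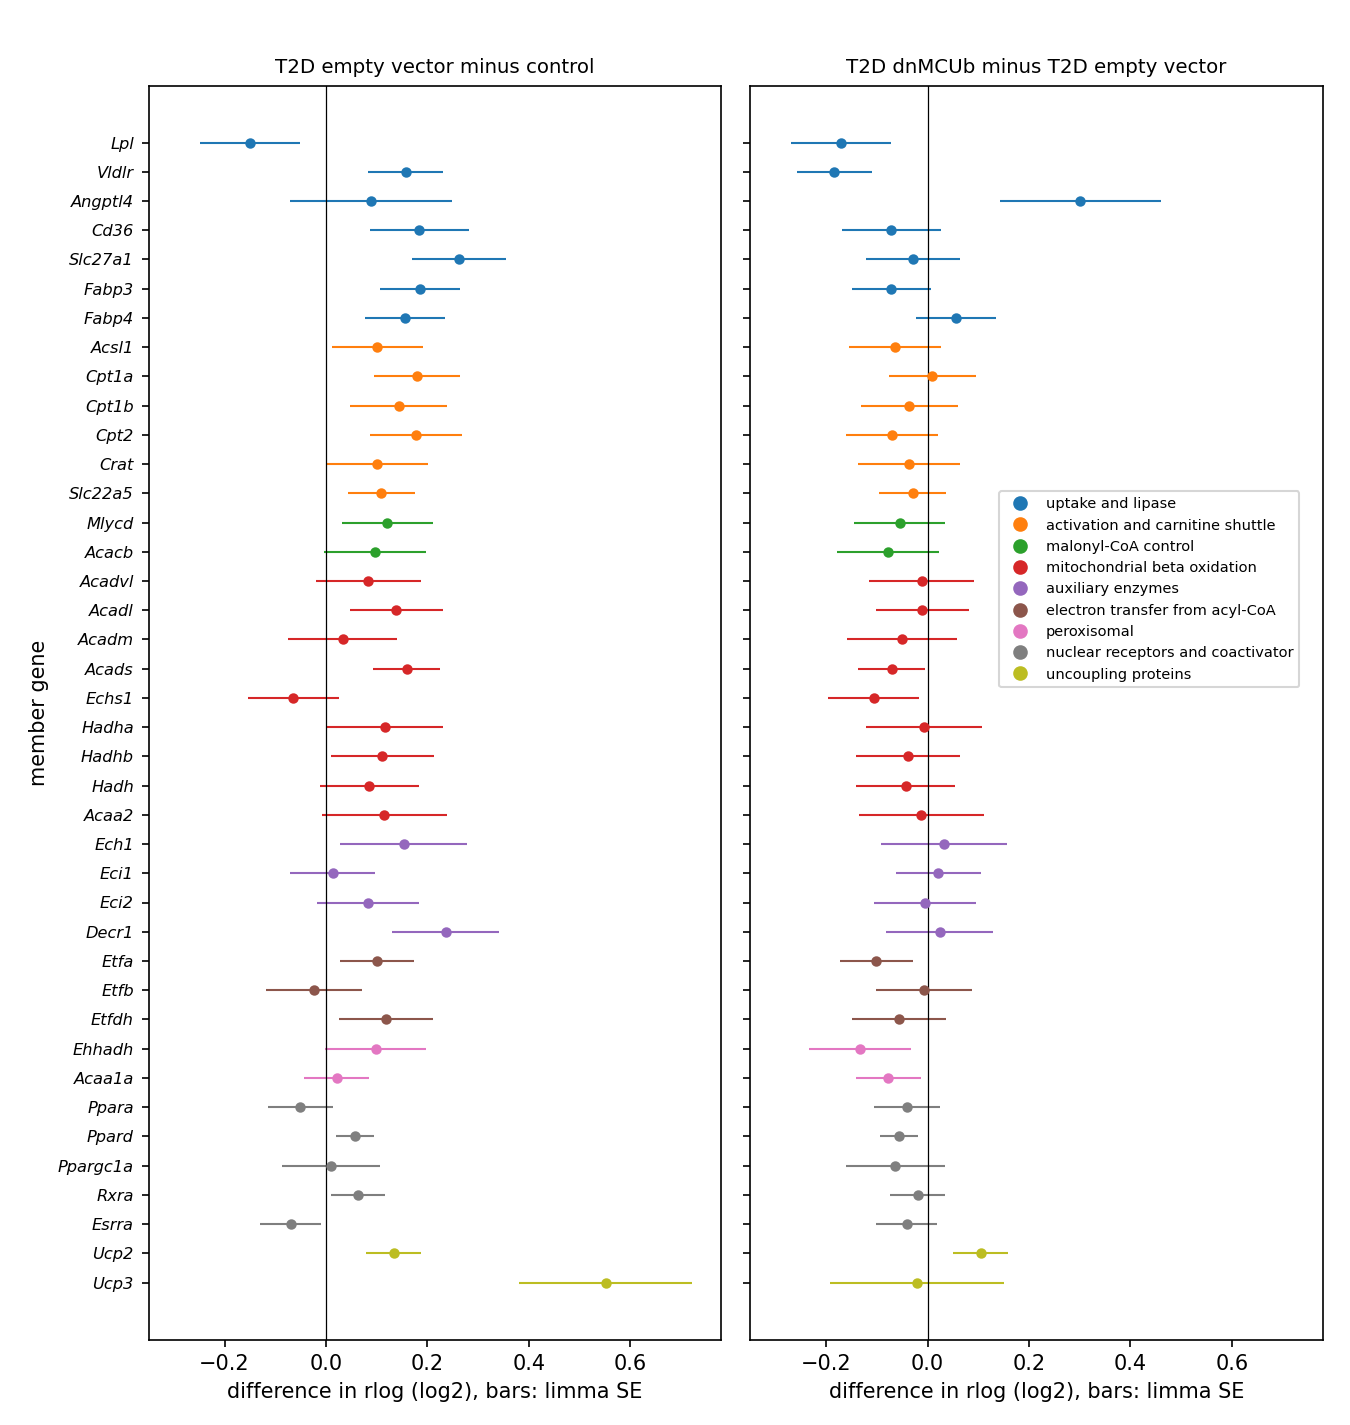
Difference in rlog (log2, horizontal axis) of the 40 tested members, coloured by role, for T2D empty vector minus control (left) and T2D dnMCUb minus T2D empty vector (right), with limma standard errors as bars. Most members lie right of 0 on the left (35 of 40) and left of 0 on the right (33 of 40).

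Diabetic hearts with dnMCUb were compared with those with empty vector to ask what the cargo changed. Of the 40 members 33 were lower in T2D dnMCUb, but by little, with a median difference of -0.039 and a range of -0.18 to 0.30. The median over all tested genes was -0.00051 and that over the abundant genes -0.045. Groups did not overlap for 4 members that were lower (Lpl, Vldlr, Etfa and Ppard, against 16.5% of all genes) and 1 that was higher (Ucp2, against 15.6%). For Etfa, Ppard and Ucp2 the groups were only narrowly apart. No member passed limma's test over all genes (smallest adjusted p = 0.869, with 0% of genes called), and at an unadjusted p under 0.05 limma had 1 lower and 0 higher, against 2.53% and 3.12% of all genes. The authors' deposited table calls 0 members and has 0 higher and 1 lower at an unadjusted p under 0.05 (0.643% and 0.253% of genes with a fold), with 0.0311% of genes called higher and 0% lower. Folds in the authors' deposited table were above 0 for 13 of the 41 members and below 0 for 28. Markers of other cells differed in this comparison. All 5 red cell markers were higher in T2D dnMCUb without overlap, by a median of 0.88, and the authors' deposited table calls all 5, with none called by limma. Summed red cell markers were at 12.47 and 12.9995 with dnMCUb, 11.70 and 11.73 with empty vector and 12.64 and 11.72 in controls. Summed smooth muscle markers were at 13.27 and 12.35 with dnMCUb and 12.28 and 12.79 with empty vector, and summed fibroblast markers at 14.83 and 14.31 with dnMCUb and 14.22 and 14.49 with empty vector, with dnMCUb library 1 the highest for both. Their part in the members' values was not tested. The direction of the members depended on which dnMCUb library was used. Without library 1 the median was 0.085, with 34 of 40 members higher, and without library 2 it was -0.16, with 2 higher. Without library 1, 30 members (75.0%) were above both T2D empty vector libraries, where 36.6% of all genes were.

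T2D dnMCUb hearts were also set against control hearts, which shares its controls with the comparison of T2D empty vector. Of the 40 members 30 were higher in T2D dnMCUb, with a median difference of 0.069, where the median over all genes was -0.0023 and that over abundant genes -0.072. Members that were higher without overlap numbered 8 (against 20.2% of all genes), and 2 were lower (Lpl and Esrra, against 22.7%). The share that was higher was thus near that of all genes. It was 33 of 40 (82.5%) without dnMCUb library 1, against 36.2% of all genes. Limma called 0.0687% of genes and no member (smallest adjusted p = 0.184). At an unadjusted p under 0.05 it had 6 members higher and 1 lower, against 5.89% and 5.54% of all genes. At an unadjusted p under 0.05 the authors' deposited table has 4 members higher and 1 lower, against 1.56% and 1.07% of genes with a fold. It calls Lpl alone among the members, with 0.117% of genes called lower and 0.240% higher. Left with library 2 alone, T2D dnMCUb had a member median of 0.18, with differences of 0.79 for Ucp3 and 0.68 for Angptl4. Left with library 1 alone, the median was -0.061, with differences of -0.40 for Lpl, -0.29 for Echs1 and -0.22 for Ppargc1a. A lone library gives no measure of the spread within its group.

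All 4 diabetic libraries together were higher than control for 33 of 40 members, with a median of 0.087. Groups did not overlap for 7 members that were higher, namely Ucp2, Ucp3, Slc27a1, Cd36, Fabp3, Fabp4 and Decr1 (17.5%, against 10.0% of all genes), and for 2 that were lower, Lpl and Esrra (against 11.9%). No member passed limma's test over all genes (smallest adjusted p = 0.256, with 0% of genes called). At an unadjusted p under 0.05 there were 6 members higher and 1 lower, against 4.80% and 4.89% of all genes. Of the 7 higher genes without overlap 4 act at uptake (Slc27a1, Cd36, Fabp3 and Fabp4), and 0 are among the 9 beta oxidation genes. That list of 9 leaves out Decr1, which was placed with the auxiliary enzymes. For 3 of the uptake genes, dnMCUb library 1 was only narrowly above the higher control: Slc27a1 (11.202 and 11.191), Cd36 (15.695 and 15.680) and Fabp3 (13.511 and 13.502). For Fabp4 it was empty vector library 2 that was close to the higher control (13.149 and 13.122). In T2D empty vector alone, 3 beta oxidation genes (Acadl, Acads and Hadha) did not overlap with control. Without dnMCUb library 1, 23 members were higher without overlap (57.5%, against 13.2%). In that fit, where dnMCUb library 2 stands alone for its group, Ucp3 was higher by 0.67 and Angptl4 by 0.38.

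Levels of the members were compared with each other per length, as the mean rlog over 6 libraries minus log2 of the table's transcript length in kilobases. Ech1 (14.54), Cd36 (14.17), Fabp3 (13.88) and Lpl (13.78) had the highest such levels. Acadm, Hadha and Acaa2 followed between 13.66 and 13.70, closer to each other than the dnMCUb libraries of any of them. Regulators were low on this scale, with Ppara at 8.56, Ppargc1a at 8.62 and Ppard at 5.20. Among the isoforms of the carnitine entry enzyme, Cpt1b stood at 12.45 and Cpt1a at 8.52, and Ucp3 at 8.46 stood above Ucp2 at 5.62. Ucp3 and Slc27a1, with the largest differences between T2D empty vector and control, were not among the most abundant on this scale, while Lpl, with the third largest between T2D dnMCUb and control, was.

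Other genes of the pathway came from lists of 83 genes outside the members, of which 78 were tested. The lists were drawn up with earlier results of these data known, so counts over them are descriptions only. In T2D empty vector 37 of these were higher than control and 41 lower, and in T2D dnMCUb 35 were higher and 43 lower. Among other targets of PPAR alpha, 14 of 15 were higher in T2D empty vector than in control, with a median of 0.16. Of these, 13 were higher without overlap, against 19.9% of all tested genes, and Fads2, a fatty acid desaturase, was lower without overlap, at a difference of -0.077 (SE 0.052), against 22.5% of all. Pdk4, the kinase that shuts pyruvate dehydrogenase, was at 13.49 and 13.99 in dnMCUb hearts, 13.71 and 13.71 in empty vector hearts and 12.67 and 12.31 in control hearts, and all 4 diabetic libraries were above both controls. Its difference was 1.22 (SE 0.17, limma adjusted p = 0.326) in T2D empty vector and 1.25 (SE 0.17, limma adjusted p = 0.0576) in T2D dnMCUb, both against control. By the authors' deposited table Pdk4, Acot1, Acot2 and Pex11a rose in T2D empty vector, with log2 folds of 0.72 for Pex11a, a peroxisome division factor, to 1.79 for Pdk4. Acot1 and Acot2, acyl-CoA thioesterases of the cytosol and of mitochondria, had folds of 1.23 and 0.87 in the authors' deposited table. The authors' deposited table also calls Dbi, the acyl-CoA binding protein (fold 0.37), and Cat, peroxisomal catalase (fold 0.39), as higher. For T2D dnMCUb against control the authors' deposited table calls Pdk4, Acot1 and Acot2 higher, with folds of 1.86, 1.36 and 0.78.

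Partners of the nuclear receptors were mixed, with 7 of 16 higher and 9 lower in T2D empty vector. Lpin1, which encodes lipin 1, a phosphatidate phosphatase that also coactivates PPAR alpha, was at 11.78 and 11.78 in dnMCUb hearts, 11.91 and 11.92 in empty vector hearts and 12.11 and 12.17 in control hearts. The 3 groups did not overlap, in the order seen for Lpl. Lpin1 differed by -0.23 (SE 0.051, limma adjusted p = 0.581) in T2D empty vector and -0.36 (SE 0.051, limma adjusted p = 0.0597) in T2D dnMCUb, both against control, and the authors' deposited table calls both falls, with folds of -0.33 (adjusted p = 0.0184) and -0.54 (adjusted p = 0.00152). Between the diabetic groups it differed by -0.14 (SE 0.051, limma adjusted p = 0.869). No gene of these lists passed limma's test over all genes in any of the 4 comparisons, with a smallest adjusted p of 0.0576 for Pdk4 in T2D dnMCUb against control.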

How the data were processed

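Per the labels' protocols, Trizol RNA of 6 mouse heart samples was depleted of ribosomal RNA and made into stranded libraries. The submitters' processing notes list DESeq2, STAR 2.5.2a and bcl2fastq 2.20.0.422, and the builds hg38, mm10 and GRCm38, with no role for any. How reads were counted, with which strand setting and filters, is not stated there. The authors deposited 1 table with rlog values on the log2 scale and, for 3 comparisons, log2 folds with raw and adjusted p-values, per the file headers. Without counts, depth and counting error are unknown. Each of the 6 value columns matched 1 sample.

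Group differences were tested by limma (version 3.58.1, R 4.3.3), with the trend option, over the 13094 genes whose mean rlog reached 5, and p-values were adjusted by Benjamini-Hochberg at 0.05. A single fit held all 6 libraries, each group having its own mean (3 residual degrees of freedom, 4.6 added by the prior). The comparison of all diabetic libraries took the mean of both diabetic groups minus control. The procedure was run on simulated data with planted changes and noise drawn separately for each gene. In the real libraries many genes shift together, which that setting lacked, so it does not measure the error rate here. An exact permutation test of 2 against 2 libraries cannot go below 0.333, nor 4 against 2 below 0.133, and none was used. The authors' folds had the sign of the rlog difference for 72 of 72, 9 of 9 and 104 of 104 called genes, and rlog differences were a median 0.577, 0.463 and 0.509 of them. Of 41 member transcripts 37 were found in GENCODE M21 (GRCm38) with unchanged positions, and the printed positions are the deposited ones.

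The members and lists were chosen with earlier results of these data known. Named members are those past 0.05 by limma or in the authors' table, up to 5 per direction with the smallest limma p in T2D empty vector against control and T2D dnMCUb against T2D empty vector, up to 3 in the others, and Cd36, Lpl, Cpt1b, Acadm, Hadha, Ppara, Ppargc1a, Ucp3 and Angptl4. Cpt1a, Cpt2, Mlycd, Acacb, Hadhb, Eci2, Etfdh, Acaa1a, Acaa2 and Rxra fall outside that rule and were chosen after their values were seen, and the rest are given by ranges. From the other pathway lists, genes called and up to 2 per direction and comparison were named, except for an item that is not reported here, and Fads2, Nudt7, Prkaa2 and Prkab2 were chosen after their values were seen. The set of abundant genes (mean rlog of at least 12) and the removal of dnMCUb library 1 from counts of groups that do not overlap were added after seeing the data. Alternatives were no trend, a mean rlog of at least 7, no filter, only the groups compared, a replicate block, libraries shifted to the same median, leaving out each library, and the authors' deposited test.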

Additional observations from a re-analysis of the deposited data

How the results depend on the processing

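Depth is unknown, so what sequencing depth limits cannot be given. For T2D empty vector against control, limma called 0 genes over the whole table (803 at an unadjusted p under 0.05), against 30 with only the groups compared and 72 in the authors' deposited test, which calls 1 member and gives a member median of 0.16. For T2D dnMCUb against T2D empty vector the authors' test calls 9 genes, and has Hadha at 0.0074 and Ucp3 at 0.023, against negative rlog differences, as do Acaa2, Eci2 and Etfb with folds of 0.00092, 0.0100 and 0.0055 in the authors' deposited table. For T2D dnMCUb against control, 9 genes were called, against 29 with a mean rlog of at least 7 and 0 without the trend, without the filter, with only the groups compared, with the replicate block or with libraries shifted to the same median, and the authors' test calls 104 genes and 1 member. With the replicate block, 0 members were called in each of the 4 comparisons. Deviations of same-numbered libraries from their group means had correlations of -0.088 (T2D empty vector and control), -0.013 (T2D dnMCUb and control) and -0.51 (both diabetic groups), so the numbers do not pair them.

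Leaving out 1 library at a time, members called ranged over 0 to 1 for T2D dnMCUb against T2D empty vector, 0 to 3 for T2D dnMCUb against control and 0 to 2 for all diabetic libraries against control. Genes called ranged over 0 to 30 for T2D empty vector against control, and over 0 to 14, 0 to 743 and 0 to 314 in those 3 comparisons. The counts of 743 and 314 came without dnMCUb library 2, that of 14 without dnMCUb library 1 and that of 30 without either, while the 1 and 2 members came without library 1 and the 3 members without library 2. Each of these fits left a lone library in a group and assumed that it varies like the other groups. Their counts of calls therefore do not measure the spread within that group. Signs turned for some members. For T2D empty vector against control the difference ranged over -0.083 to 0.036 for Etfb, -0.026 to 0.091 for Acadm, -0.019 to 0.038 for Ppargc1a and -0.0064 to 0.19 for Angptl4. For T2D dnMCUb against T2D empty vector it ranged over -0.0099 to 0.12 for Fabp4, -0.13 to 0.20 for Ech1, -0.10 to 0.15 for Eci1, -0.17 to 0.098 for Cpt1b, -0.19 to 0.084 for Acadm, -0.16 to 0.15 for Hadha, -0.12 to 0.042 for Ppara, -0.23 to 0.10 for Ppargc1a and -0.28 to 0.24 for Ucp3. For T2D dnMCUb against control it ranged over -0.027 to 0.24 for Cpt1b, -0.15 to 0.12 for Acadm, -0.048 to 0.26 for Hadha and -0.22 to 0.11 for Ppargc1a, and for all diabetic libraries against control over -0.060 to 0.075 for Acadm and -0.11 to 0.062 for Ppargc1a. The cause was not tested.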

Other observations

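Acyl-CoA dehydrogenases and helpers outside the members, most of them mitochondrial, lay mostly below control. The majority break down branched-chain amino acids or odd-chain products. In T2D empty vector 12 of 14 were lower than control (median -0.061), 9 of them without overlap, against 22.5% of all tested genes. In T2D dnMCUb 13 of 14 were lower than control (median -0.12), 10 without overlap, against 22.7%. Limma called 0 of them and, at an unadjusted p under 0.05, had 1 lower and 1 higher in T2D empty vector, against 2.87% and 3.26% of all genes, the higher one being Nudt7, a peroxisomal hydrolase of coenzyme A, at a difference of 0.17 (SE 0.054). In T2D dnMCUb it had 4 lower and 0 higher, against 5.54% and 5.89%. Acadsb, the dehydrogenase for short branched chains, was at 11.82 and 11.89 in dnMCUb hearts, 11.96 and 11.89 in empty vector hearts and 12.16 and 12.06 in control hearts. The 3 groups did not overlap, though the diabetic groups only narrowly, with nearest libraries at 11.894 with empty vector and 11.889 with dnMCUb. The difference of T2D dnMCUb from control was -0.26 (SE 0.061, limma adjusted p = 0.196).

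Genes of AMPK, the kinase that inhibits malonyl-CoA synthesis when energy is short, were listed with Acaca, which makes malonyl-CoA, and with Stk11. Of these 8 genes 6 were lower with empty vector and 6 with dnMCUb, both against control, with 0 called by limma. Limma had 0 lower with empty vector and 3 with dnMCUb at an unadjusted p under 0.05, against 2.87% and 5.54% of all genes. Those in T2D dnMCUb were Prkaa2, a catalytic subunit, at -0.16 (SE 0.060, limma adjusted p = 0.375), Prkab2, a regulatory subunit, at -0.15 (SE 0.051, limma adjusted p = 0.338), and Prkab1, its relative, at -0.094 (SE 0.039, limma adjusted p = 0.416), each without overlap. These 3 of the 8 (37.5%) were lower than control without overlap, against 22.7% of all tested genes. Prkab1 was at 8.86 and 8.85 in dnMCUb hearts, 8.99 and 8.99 in empty vector hearts and 8.94 and 8.97 in control hearts, with T2D dnMCUb below both other groups and a difference of -0.13 (SE 0.039, limma adjusted p = 0.784) from T2D empty vector. Fabp5, the epidermal type binding protein, was at 8.53 and 8.51 in dnMCUb hearts, 8.35 and 8.43 in empty vector hearts and 8.42 and 8.44 in control hearts, with T2D dnMCUb above both other groups and a difference of 0.13 (SE 0.044, limma adjusted p = 0.869) from T2D empty vector.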
